A study of Mus musculus with 7 samples.

Results

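The genes of glycolysis and of the hypoxia response were followed across 7 mouse samples, from glucose uptake through lactate export to the HIF factors and their targets. The set was given as 40 gene symbols, and a gene was measured where a probe set carried its symbol alone. Of the 40 symbols, 38 had such a probe set, among 19938 genes tested. Gpi1 and Eno1 had none and were not analysed here, and the older symbol Ero1l was read as Ero1a. No filter on low values was applied, so every one of the 38 measured members entered each comparison.

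Each sample was hybridised to 1 Affymetrix Mouse Gene 1.0 ST array. MDEC, mouse dermal endothelial cells labelled PECAM positive, gave 1 array. Clones A2, A3, A4 and A5 of B16F10, a pigmented mouse melanoma line, were PECAM1+ (n = 4), and clone A1 of the same line was PECAM1-. Parental B16F10 cells, from which the clones came, were also PECAM1-, so that the PECAM1- group (n = 2) joined a clone with an uncloned population. The melanoma cells grew in DMEM with serum, whereas MDEC grew in DMEM with an endothelial growth supplement. No genotype, treatment, oxygen level, glucose level or cell density was given in the labels. The PECAM1+ samples were different clones with 1 array each, and no repeat culture was stated for any sample. The p-values therefore reflect only the spread among these arrays. That spread joins differences between clones with technical variation, which cannot be told apart.

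Glycolysis splits glucose into pyruvate and yields ATP without oxygen, and lactate dehydrogenase then turns pyruvate into lactate, which leaves the cell through monocarboxylate transporters. When oxygen falls, prolyl hydroxylases stop marking the HIF alpha subunits for destruction by the VHL ubiquitin ligase, and HIF binds a short core motif near its target genes. Many of these targets are glycolytic genes, others act in mitophagy, collagen modification or vessel growth, and melanoma cells are known for a high glycolytic rate even in the presence of oxygen. HIF alpha is controlled mostly at the protein level, which arrays do not measure.

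All values are log2 levels as deposited, and differences are in log2 units, so that 1 unit is a 2-fold change. The array medians lay between 6.12 and 6.18. As a check of the labels, Pecam1 read 11.07, 11.01, 11.03 and 11.00 in clones A2 to A5, against 5.43 in clone A1 and 5.27 in parental cells.

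The promoters of 6 members are shown because these genes carried large differences among the arrays, a choice made after their values were seen. They come from the RefSeq mouse assembly GRCm38.p6, from 250 bases before the transcription start to 50 bases after it, on the strand of the gene, 5′ to 3′. Capitals mark the HIF core motif, searched as ACGTG or GCGTG on both strands (read on the other strand as CACGT or CACGC). Positions below count the first transcribed base as 0. Aldoc lies at chr11:78322823-78323122 on the plus strand (the first of 2 promoters listed), Eno2 at chr6:124769624-124769923 on the minus strand and Kdm3a at chr6:71632868-71633167 on the minus strand (the first of 3). Ddit4 lies at chr10:59951721-59952020 on the minus strand, Egln3 at chr12:54203825-54204124 on the minus strand and Adm at chr7:110627407-110627706 on the plus strand.
Aldoc: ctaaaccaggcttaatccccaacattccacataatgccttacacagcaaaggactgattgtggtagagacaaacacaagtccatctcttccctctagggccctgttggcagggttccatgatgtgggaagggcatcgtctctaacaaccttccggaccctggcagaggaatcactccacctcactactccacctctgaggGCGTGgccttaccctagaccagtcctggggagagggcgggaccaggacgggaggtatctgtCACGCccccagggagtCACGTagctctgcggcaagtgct
Eno2: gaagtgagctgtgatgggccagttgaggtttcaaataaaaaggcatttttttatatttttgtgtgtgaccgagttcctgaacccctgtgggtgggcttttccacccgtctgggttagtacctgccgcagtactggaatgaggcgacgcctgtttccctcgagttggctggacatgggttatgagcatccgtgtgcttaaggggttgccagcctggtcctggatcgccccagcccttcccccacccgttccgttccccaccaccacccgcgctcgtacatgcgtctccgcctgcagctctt
Kdm3a: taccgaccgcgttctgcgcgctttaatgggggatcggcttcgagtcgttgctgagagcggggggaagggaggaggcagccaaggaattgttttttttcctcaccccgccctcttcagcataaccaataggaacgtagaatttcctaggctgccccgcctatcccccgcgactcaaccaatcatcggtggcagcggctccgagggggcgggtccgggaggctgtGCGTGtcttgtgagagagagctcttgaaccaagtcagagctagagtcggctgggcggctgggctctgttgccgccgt
Ddit4: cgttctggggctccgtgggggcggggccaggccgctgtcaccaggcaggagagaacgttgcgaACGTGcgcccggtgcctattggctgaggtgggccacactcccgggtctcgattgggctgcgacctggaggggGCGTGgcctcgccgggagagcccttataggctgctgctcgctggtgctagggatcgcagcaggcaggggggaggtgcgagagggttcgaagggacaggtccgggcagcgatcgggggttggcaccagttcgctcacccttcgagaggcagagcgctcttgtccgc
Egln3: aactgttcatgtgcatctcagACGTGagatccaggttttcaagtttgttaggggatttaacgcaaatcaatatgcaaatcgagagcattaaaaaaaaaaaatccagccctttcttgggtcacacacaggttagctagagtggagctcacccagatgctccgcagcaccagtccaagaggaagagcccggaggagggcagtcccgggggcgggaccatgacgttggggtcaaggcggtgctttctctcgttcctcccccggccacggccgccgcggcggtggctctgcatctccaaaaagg
Adm: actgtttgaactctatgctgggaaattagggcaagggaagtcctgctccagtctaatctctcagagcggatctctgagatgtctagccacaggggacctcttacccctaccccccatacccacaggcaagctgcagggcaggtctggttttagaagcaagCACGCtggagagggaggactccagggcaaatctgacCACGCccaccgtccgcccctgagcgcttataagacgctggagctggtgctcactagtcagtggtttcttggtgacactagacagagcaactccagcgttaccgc

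The Aldoc window held 3 matches, starting at -50, 11 and 27. Adm held 2, at -90 and -54, and Ddit4 held 2, at -187 and -115. Kdm3a held 1 at -27 and Egln3 held 1 at -229, and the Eno2 window held 0. Of the 38 measured members, 34 had a promoter in the table and Slc2a3, Epas1, Ndrg1 and Bnip3l had none. At least 1 match stood in a promoter of 31 of these 34 members (91.2%), against 8632 of the 15614 genes tested that had a promoter (55.3%). Counted per promoter, 38 of the members' 49 promoters held one (77.6%), against 14380 of all 32851 promoters (43.8%). The latter include promoters of genes not tested. Counted per gene, the share over all genes with a promoter was 46.7%, below the 55.3% of the genes tested. Eno2, Tpi1 and Vhl were the members without a match. A match is a run of letters and was not shown to be a bound site, and the members include genes known as HIF targets.

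**Figure D1:**
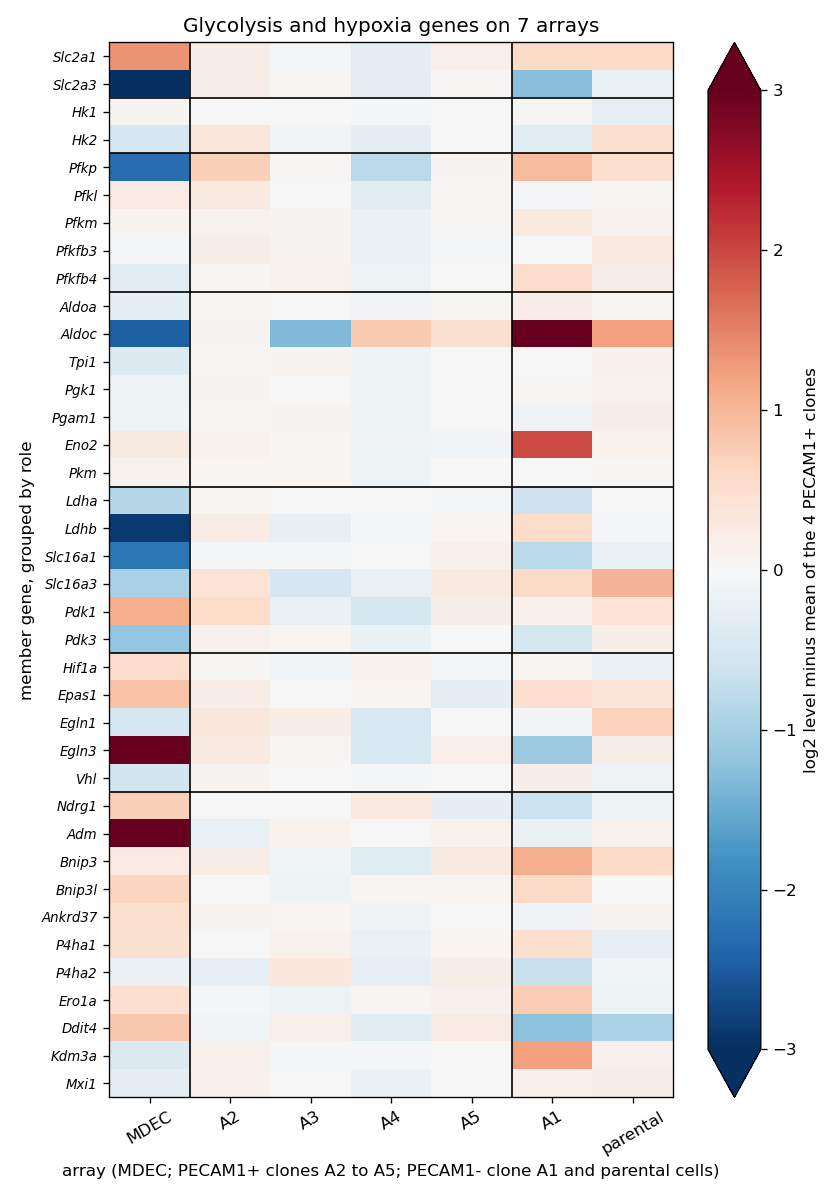
Each cell gives the log2 level of 1 of the 38 measured members (rows, grouped by role) on 1 of the 7 arrays (columns) minus the mean of the 4 PECAM1+ clones, with colours ending at 3 log2 units either way. Clone A1 stands apart at Aldoc and Eno2 (high), MDEC at Adm and Egln3 (high) and at Aldoc and Ldhb (low).

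The PECAM1+ clones were first set against both PECAM1- samples, to ask whether these genes follow PECAM1 status in the melanoma line. Of the 38 members, 0 passed limma's test at an adjusted p of 0.05, with Benjamini-Hochberg adjustment over all genes tested. Over all genes 0.01% passed, or 2 genes. At an unadjusted p under 0.05 the members numbered 8 (21.1%), against 9.18% of all genes. Of the members, 33 were at or above the median level of all genes. The share among such brighter genes was not computed here. Nor was it computed below for the shares under 0, the counts without overlap, the 2-fold counts or the counts of MDEC. Leaving out the parental array gave 8 members past the adjusted threshold (21.1%), but also 20.5% of all genes, and these members are described under clone A1.

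Most members lay lower in the clones, without passing the test. The difference was below 0 for 25 of 38 members (65.8%), against 49.6% of all genes, and the median difference was -0.11 over the members and 0.00 over all genes. The 4 clones did not overlap the 2 PECAM1- samples for 11 members (28.9%), against 16.4% of all genes. The clones were lower at 9 of these, Slc2a1, Pfkm, Pfkfb4, Aldoa, Aldoc, Slc16a3, Epas1, Bnip3 and Mxi1 (23.7%, against 8.68% of all genes). They were higher at the other 2, Slc16a1 and Ddit4 (5.26%, against 7.73%).

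Slc2a1 encodes GLUT1, the main glucose transporter of many tumour cells. It read 10.96, 10.74, 10.51 and 10.94 in clones A2 to A5, against 11.36 in clone A1 and 11.38 in parental cells. The PECAM1- samples read almost alike and both lay above every clone. The difference was -0.58 ± 0.14 (SE), with an adjusted p of 0.421 by limma.

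Slc2a3 encodes GLUT3, a glucose transporter of high affinity. Its level was 9.58, 9.42, 9.09 and 9.41 in clones A2 to A5, against 8.12 in clone A1 and 9.18 in parental cells. Clone A1 alone was low, and the parental value fell among the clones. Hk2, the inducible hexokinase that traps glucose in the cell, read 8.96, 8.55, 8.34 and 8.65 in the clones, against 8.31 in clone A1 and 9.11 in parental cells. The parental cells were above every clone for Hk2 and clone A1 was just below them.

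Hk1, the housekeeping hexokinase, had 2 probe sets that disagreed. The brighter, used by the rule for all genes, read 12.66, 12.66, 12.61 and 12.62 in clones A2 to A5, 12.67 in clone A1 and 12.40 in parental cells, and its annotation holds no RefSeq transcript. The other, which is annotated with RefSeq transcripts, read 10.42, 10.46, 9.89 and 10.10 in the clones, against 9.23 in clone A1 and 10.34 in parental cells. By that probe set, chosen after the values were seen, Hk1 differed from clone A1 by 0.99 (adjusted p = 0.0766, limma) and from parental cells by -0.12 (adjusted p = 0.98), whereas the brighter one gave -0.03 and 0.23. The sign of the Hk1 difference from either sample alone therefore hung on the probe set.

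Phosphofructokinase commits glucose to glycolysis, and the PFKFB enzymes make its activator fructose 2,6-bisphosphate. Pfkp, the platelet-type subunit, read 10.01, 9.33, 8.48 and 9.38 in clones A2 to A5, against 10.25 in clone A1 and 9.79 in parental cells. The clones spread over 1.52 units and overlapped the PECAM1- samples. Pfkm, the muscle-type subunit, read 9.52, 9.50, 9.22 and 9.46 in the clones, against 9.72 in clone A1 and 9.53 in parental cells, so that the highest clone and the parental cells nearly met.

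Pfkfb4 read 6.62, 6.66, 6.39 and 6.55 in clones A2 to A5, against 7.07 in clone A1 and 6.73 in parental cells. Its difference was -0.35 ± 0.12 (SE; adjusted p = 0.504, limma), with no overlap. Pfkfb3 overlapped, at 7.70, 7.61, 7.30 and 7.50 in the clones, against 7.53 in clone A1 and 7.82 in parental cells. Clone A4 was the lowest B16F10 array for all 4 of these genes.

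The lower steps of glycolysis were bright and nearly flat, apart from Aldoc and Eno2. Aldoa, the aldolase of muscle and most other tissues, read 12.77, 12.73, 12.64 and 12.77 in clones A2 to A5, against 12.94 in clone A1 and 12.80 in parental cells. Pgk1, phosphoglycerate kinase, read 12.30, 12.22, 12.09 and 12.24 in the clones, against 12.26 in clone A1 and 12.32 in parental cells. Tpi1, Pgam1 and Pkm, which encode triose phosphate isomerase, phosphoglycerate mutase and pyruvate kinase, differed from the PECAM1- samples by between -0.07 and -0.02.

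Aldoc, the aldolase best known from brain, had the widest spread of the members. It read 8.27, 6.86, 8.96 and 8.64 in clones A2 to A5, against 11.18 in clone A1 and 9.42 in parental cells. Clone A3 was far below the other clones, and every clone lay below both PECAM1- samples. The difference was -2.12 ± 0.75 (SE), with an adjusted p of 0.494 by limma. Eno2, the neuronal enolase, read 8.40, 8.37, 8.19 and 8.22 in the clones, against 10.26 in clone A1 and 8.40 in parental cells. Only the clone A1 array was high for Eno2.

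Lactate and pyruvate genes differed in both directions, and none passed the test. Slc16a1, which encodes the lactate transporter MCT1, read 10.43, 10.45, 10.46 and 10.60 in clones A2 to A5, against 9.68 in clone A1 and 10.27 in parental cells. Slc16a3, which encodes the lactate exporter MCT4, read 9.05, 8.13, 8.40 and 8.93 in the clones, against 9.20 in clone A1 and 9.66 in parental cells. So the clones lay above both PECAM1- samples for MCT1 and below both for MCT4, by 0.51 ± 0.17 and -0.80 ± 0.31 (SE; adjusted p = 0.484 and 0.536, limma).

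Ldha, the lactate dehydrogenase subunit that favours lactate, read 12.88, 12.85, 12.82 and 12.78 in clones A2 to A5, against 12.20 in clone A1 and 12.84 in parental cells. Ldhb, the subunit that favours pyruvate, read 10.85, 10.38, 10.58 and 10.69 in the clones, against 11.17 in clone A1 and 10.60 in parental cells. For each of these the parental value fell among the clones and clone A1 lay outside them, low for Ldha and high for Ldhb. Pdk1, a kinase that blocks pyruvate entry into the citric acid cycle, overlapped, at 8.08, 7.32, 7.01 and 7.71 in the clones, against 7.67 in clone A1 and 7.93 in parental cells. Pdk3, a kinase of the same family, differed by 0.18 and overlapped too.

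Of the HIF factor transcripts, Hif1a differed little, while Epas1 lay lower in the clones without passing the test. Hif1a read 10.88, 10.75, 10.94 and 10.77 in clones A2 to A5, against 10.89 in clone A1 and 10.66 in parental cells. Epas1, which encodes HIF-2 alpha, read 6.63, 6.43, 6.51 and 6.18 in the clones, against 6.95 in clone A1 and 6.83 in parental cells. Every clone was below both PECAM1- samples for Epas1, by -0.45 ± 0.13 on average (SE; adjusted p = 0.436, limma).

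The prolyl hydroxylases mark HIF for destruction and are themselves HIF targets. Egln1, which encodes PHD2, read 8.74, 8.59, 7.93 and 8.43 in clones A2 to A5, against 8.33 in clone A1 and 9.12 in parental cells. Egln3, which encodes PHD3, read 6.62, 6.40, 5.85 and 6.49 in the clones, against 5.25 in clone A1 and 6.52 in parental cells. Clone A1 was thus the lowest array for Egln3, and the parental cells the highest for Egln1. Vhl differed by -0.04 and overlapped.

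Among the other HIF targets, Ddit4 lay higher in every clone. It encodes REDD1, an inhibitor of mTORC1 that many stresses induce, and read 8.74, 8.99, 8.52 and 9.07 in clones A2 to A5, against 7.59 in clone A1 and 7.89 in parental cells. The difference from both was 1.09 ± 0.19 (SE; adjusted p = 0.317, limma). Bnip3, a mitophagy receptor, read 8.99, 8.71, 8.44 and 9.07 in the clones, against 9.89 in clone A1 and 9.37 in parental cells. It differed by -0.83 ± 0.24 (SE; adjusted p = 0.436), and a second, dimmer Bnip3 probe set read between 7.43 and 7.82 in the clones, against 8.51 in clone A1 and 8.17 in parental cells.

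Kdm3a, a histone demethylase, read 9.32, 9.12, 9.12 and 9.21 in clones A2 to A5, against 10.41 in clone A1 and 9.31 in parental cells. Ero1a, which forms disulphide bonds in the endoplasmic reticulum, read 10.40, 10.27, 10.49 and 10.57 in the clones, against 11.19 in clone A1 and 10.31 in parental cells. Bnip3l, the mitophagy receptor NIX, read 11.42, 11.30, 11.47 and 11.48 in the clones, against 12.00 in clone A1 and 11.42 in parental cells. For these 3 genes clone A1 alone was high.

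Ndrg1, a stress-responsive gene, read 10.93, 10.92, 11.23 and 10.68 in clones A2 to A5, against 10.29 in clone A1 and 10.81 in parental cells. Adm, which encodes the vessel-active peptide adrenomedullin, was dim on every B16F10 array, at 4.59, 4.91, 4.83 and 4.91 in the clones, against 4.62 in clone A1 and 4.91 in parental cells. Neither separated the groups. The remaining targets Ankrd37, P4ha1, P4ha2 and Mxi1 differed by between -0.17 and 0.36, and of these only Mxi1 did not overlap.

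**Figure D2:**
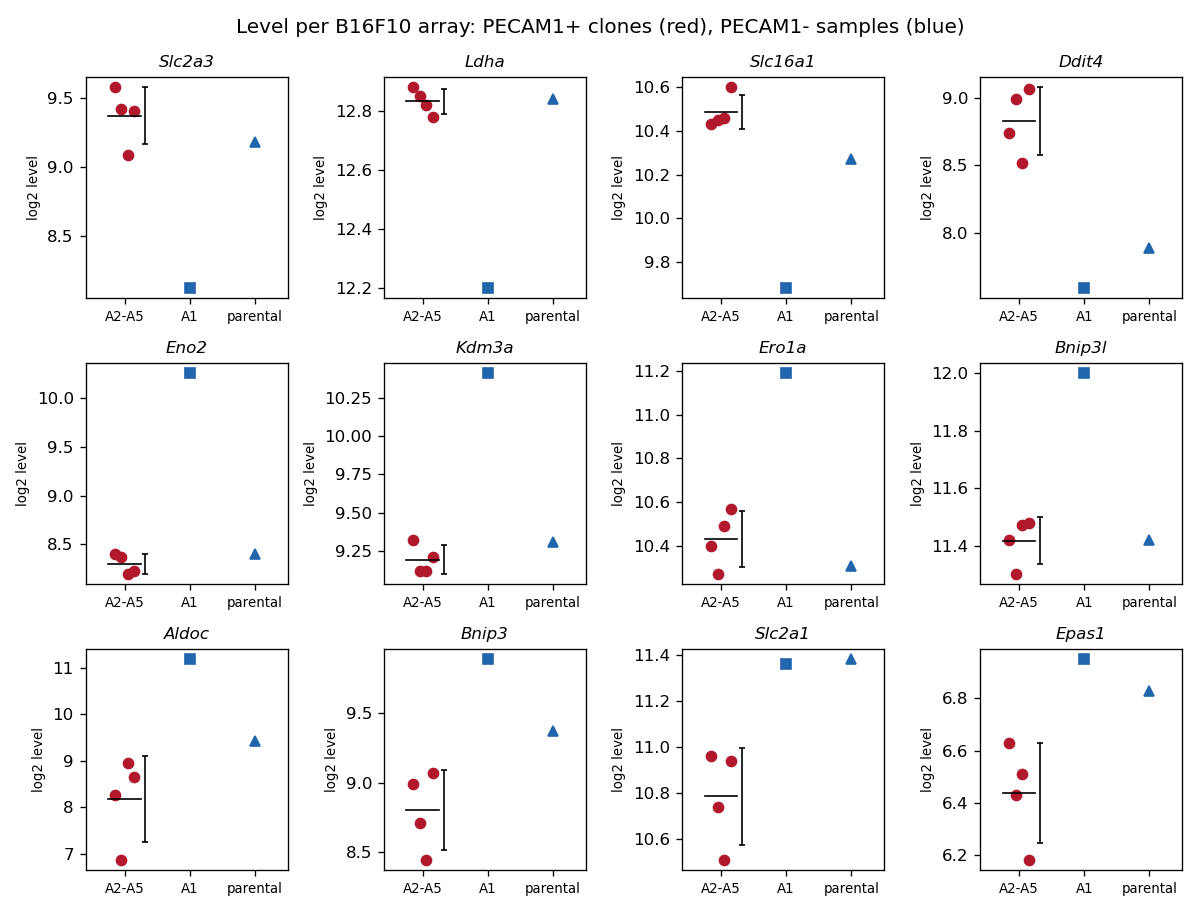
Log2 level on each B16F10 array for 12 members, with the 4 PECAM1+ clones as red circles (bar, mean; whisker, SD), clone A1 as a blue square and parental cells as a blue triangle; each panel has its own axis, not starting at 0. The upper 8 panels are the members that passed the test against clone A1 (Slc2a3 at 8.12 and Eno2 at 10.26 in that clone, for example), and the other 4, chosen after their values were seen, are Aldoc, Bnip3, Slc2a1 and Epas1.

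The PECAM1+ clones were next compared with each PECAM1- sample on its own, since the 2 samples were of different kinds. A lone sample has no spread, so it was assumed to vary as the clones do. Against clone A1, 8 of 38 members passed limma's test at an adjusted p of 0.05 (21.1%), and 20.5% of all genes did. The members' share was near that of all genes, which is therefore not a result about the members. By direction, 4 were higher in the clones (10.5%, against 9.33% of all genes) and 4 were lower (10.5%, against 11.2%). The median difference was -0.05 over the members and 0.00 over all genes.

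The higher members were the glucose transporter Slc2a3, the lactate genes Slc16a1 and Ldha, and Ddit4, grouped as a HIF target. Slc2a3 was higher by 1.25 ± 0.20 (SE; adjusted p = 0.0251), or 2.38-fold, and Ddit4 by 1.24 ± 0.24 (adjusted p = 0.0384), or 2.36-fold. Slc16a1 was higher by 0.80 ± 0.08 (adjusted p = 0.0101) and Ldha by 0.64 ± 0.05 (adjusted p = 0.00521). Slc2a3 and Ddit4 no longer passed without A2, A3 or A5, with adjusted p-values up to 0.0908 for Slc2a3 and 0.104 for Ddit4, and Ddit4 also missed the threshold when all probe sets were tested (adjusted p = 0.0512).

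The lower members were the glycolytic enzyme Eno2 and Kdm3a, Ero1a and Bnip3l, grouped as HIF targets. HIF targets thus stood in both directions. In the PECAM1+ clones Eno2 differed by -1.96 ± 0.11 (SE; adjusted p = 0.00382), or 3.90-fold, and Kdm3a by -1.22 ± 0.10 (adjusted p = 0.00691), or 2.33-fold. Ero1a differed by -0.75 ± 0.13 (adjusted p = 0.03) and Bnip3l by -0.58 ± 0.08 (adjusted p = 0.0201). Ero1a no longer passed without A2, A4 or A5 (adjusted p up to 0.0882) and Bnip3l without A2 or A5 (up to 0.0665). The calls of Eno2, Kdm3a, Ldha and Slc16a1 held when any 1 of the 4 clones was left out.

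The number of lower calls depended on the scaling of the arrays and on the filter on dim genes. It was 7, with 5 higher, after quantile normalization (31.6% of the members in all, against 21.5% of all genes) and 7, with 4 higher, after median centring (28.9%, against 20.6%). When the dimmer genes were left out it was 7, with 5 higher, among the 33 members kept (36.4%, against 38% of the genes kept). Bnip3 and P4ha1 were added each time. Large differences that missed the threshold were those of Aldoc, at -3.00 ± 0.89 (SE; adjusted p = 0.0981), Bnip3, at -1.09 ± 0.28 (adjusted p = 0.0699), and Egln3, at 1.09 ± 0.33 (adjusted p = 0.101). Aldoc passed when the dimmer genes were left out, and Egln3 passed without clone A4.

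Clone A1 also stood apart in genes outside glycolysis and hypoxia, in lists chosen with earlier results of these data known. For 9 cell cycle genes the median difference of the PECAM1+ clones from clone A1 was 3.77, against 0.00 over all genes. Mean levels were 10.74 to 10.92 in the clones, against 7.32 in clone A1 and 10.92 in parental cells. For 10 genes of the ATF4 and endoplasmic reticulum stress response the median was -1.32. These had means of 8.68 to 9.08 in the clones, against 10.54 in clone A1 and 8.53 in parental cells. The part of either list in the differences of Eno2, Kdm3a, Ero1a, Ddit4 and the other members was not tested.

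Against parental cells alone, 0 of 38 members passed limma's test (background 0.01%), and 3 had an unadjusted p under 0.05, which is 7.89%, against 13.5% of all genes. These were Slc2a1 at -0.59 ± 0.20 (SE; adjusted p = 0.348), Ddit4 at 0.95 ± 0.24 (adjusted p = 0.255) and Hk1 at 0.23 ± 0.03 (adjusted p = 0.138) by its brighter probe set. The median difference was -0.10, and 27 of 38 members lay below 0 (71.1%, against 51% of all genes). Differences of 2-fold or more were those of Aldoc and Slc16a3 (5.26%, against 0.657% of all genes), at -1.24 ± 0.89 (adjusted p = 0.733) and -1.04 ± 0.42 (adjusted p = 0.426).

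The comparisons with clone A1 and with parental cells share the 4 PECAM1+ arrays, so their values are given side by side. Eno2 differed by -1.96 from clone A1 and by -0.11 from parental cells, and Kdm3a by -1.22 and -0.12. Ldha differed by 0.64 from clone A1 and by -0.01 from parental cells. Slc2a1 differed by -0.57 from clone A1 and by -0.59 from parental cells, and neither passed the test. Ddit4 differed by 1.24 and 0.95, and the first alone passed. Between the PECAM1- samples themselves, clone A1 exceeded parental cells by 2-fold or more at Eno2 (1.86), Aldoc (1.76) and Kdm3a (1.10), which is 7.89% of the members, against 3.7% of all genes. It lay below them by as much at Egln3 (-1.27) and Slc2a3 (-1.05), or 5.26%, against 3.14%.

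The members also varied among the 4 PECAM1+ clones, in an order that was noticed after the values were seen. Clone A4 held the lowest value of the 4 for 25 of 38 members (65.8%), against 30% of all genes and 44.5% of genes at or above the median level. Clone A2 held the highest for 24 (63.2%), against 25.8% and 38%. Hk1 was counted by its brighter probe set, and by the other one clone A3 was highest (10.46, against 10.42 in A2). These genes were read on the same 4 arrays, so they are not independent, and each clone is 1 array.

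The shift was small and spread over the pathway. Relative to the mean of the 4 clones, the members' median was 0.09 in A2, 0.02 in A3, -0.14 in A4 and 0.03 in A5. The medians over all genes lay between -0.01 and 0.01, but the array medians were nearly equal to begin with. Of the members, 33 were at or above the median level, and no such value was computed for those brighter genes. Whether the shift is particular to the pathway was therefore not tested. All 5 phosphofructokinase and PFKFB genes were lowest in A4, as were both glucose transporters, Pdk1, Egln1 and Egln3. Aldoc, Hif1a and Ndrg1 ran the other way and were highest in A4 (7.89%, against 19.6% of all genes). The SD over the clones had a median of 0.14 among the members and 0.10 among all genes. It was smallest for Hk1 by its brighter probe set (0.03) and largest for Aldoc (0.93). By its other probe set Hk1 spread from 9.89 to 10.46 over the clones and was not the steadiest member.

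**Figure D3:**
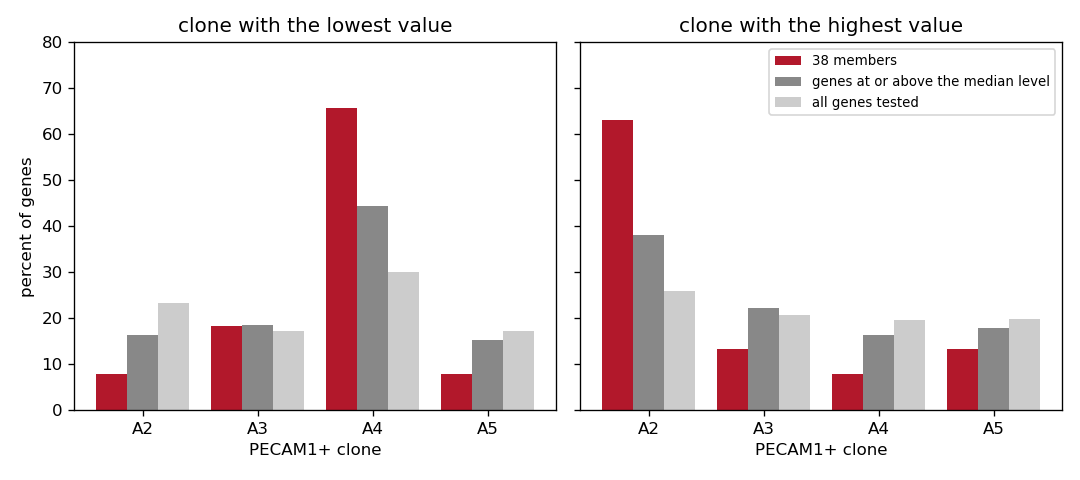
Bars give the percent of genes for which each PECAM1+ clone had the lowest (left) or the highest (right) value of the 4 clones, for the 38 members, for genes at or above the median level and for all genes tested; ties are left out. Clone A4 is lowest for 65.8% of the members and clone A2 highest for 63.2%.

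MDEC were set against the B16F10 arrays to place the melanoma values beside those of an endothelial cell. With 1 MDEC array there was no test, and a gene was counted when MDEC lay beyond every one of the 6 B16F10 values and differed 4-fold or more from the average of the 2 B16F10 group means. The endothelial marker Cdh5 read 12.41 in MDEC, against 4.86 to 5.08 in B16F10, and the melanocyte marker Tyrp1 read 4.95 in MDEC, against 12.89 to 13.09 in B16F10, as both labels require. Cell type and culture medium differed together and cannot be told apart.

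Of the 38 members, 6 met that rule (15.8%), against 4.73% of all genes. MDEC were higher at 2 of them (5.26%, against 2.72% of all genes) and lower at 4 (10.5%, against 2.01%). Outside the B16F10 range in either direction lay 30 members (78.9%, against 52.9% of all genes). Hk1 was among them only by its brighter probe set, as the other read 10.00 in MDEC, against 9.23 to 10.46 in B16F10.

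The 2 higher members came from the HIF role groups. These groups do not hold every HIF target, since many targets are glycolytic genes and were grouped as such. Adm read 9.93 in MDEC, against 4.59 to 4.91 on the B16F10 arrays, a difference of 5.15. The same B16F10 value of 4.91 stood on 3 arrays, and without detection calls it is not known whether Adm was detected there, so the size of the difference may be a lower bound. Egln3 read 10.16 in MDEC, against 5.25 to 6.62 on the B16F10 arrays, a difference of 4.05 or 16.56-fold. Both genes were dim on every melanoma array and bright in MDEC.

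The 4 lower members were grouped under glucose uptake, glycolysis and lactate handling, and such genes can be HIF targets too. Aldoc read 5.72 in MDEC, against 6.86 to 11.18 in B16F10, and Ldhb read 7.75, against 10.38 to 11.17. Slc2a3 read 6.34 in MDEC, against 8.12 to 9.58 in B16F10, and Pfkp read 7.02, against 8.48 to 10.25. The differences were -3.52, -3.00, -2.67 and -2.64 in that order. Slc16a1 came next at 8.31 in MDEC, against 9.68 to 10.60 in B16F10 (-1.92), and met the rule too when clone A1 was left out or when the 6 arrays were averaged directly.

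The 2 glucose transporters differed in opposite directions between the cell types. Slc2a1 read 12.14 in MDEC, above the 10.51 to 11.38 of B16F10, by 1.06, while Slc2a3 was lower. Both lactate transporters were lower in MDEC, with Slc16a3 at 7.65, against 8.13 to 9.66 in B16F10. Ldha read 11.98 in MDEC, against 12.20 to 12.88, and Pdk1 8.62, above the 7.01 to 8.08 of B16F10.

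As a group, the 22 measured members of uptake, glycolysis and lactate handling had a median difference of -0.40. Of them, 18 lay outside the B16F10 range, with Hk1 again taken by its brighter probe set. The 16 members of the HIF role groups had a median of 0.43, with 12 outside the range. Over all genes the median was 0.00 and 52.9% lay outside the range. Further genes of these pathways, listed below, had medians near that of all genes. It was 0.00 for 44 hypoxia response genes, of which 1 met the rule of size as higher and 3 as lower. For 37 glycolysis and pyruvate genes it was -0.01, with 1 higher and 1 lower (2.72% and 2.01% of all genes). Hif1a read 11.36 in MDEC, against 10.66 to 10.94 in B16F10, and Epas1, a factor known from endothelium, read 7.29, against 6.18 to 6.95. Ddit4 read 9.65 in MDEC, against 7.59 to 9.07, and Ndrg1 11.66, against 10.29 to 11.23. Of the 10 ATF4 and endoplasmic reticulum stress genes, 10 lay above the B16F10 mean in MDEC (median 1.25) and 6 lay outside the B16F10 range. Trib3, Chac1 and Slc7a11 met the rule of size. The 9 cell cycle genes had a median of -1.83 and 0 lay outside the range, whose low end was set by clone A1. Their mean level was 8.29 in MDEC, against 7.32 in clone A1, 10.92 in parental cells and 10.74 to 10.92 in the PECAM1+ clones. The part of either set in the members' values was not tested. Bnip3, Ero1a, P4ha1 and P4ha2 lay within the B16F10 range.

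**Figure D4:**
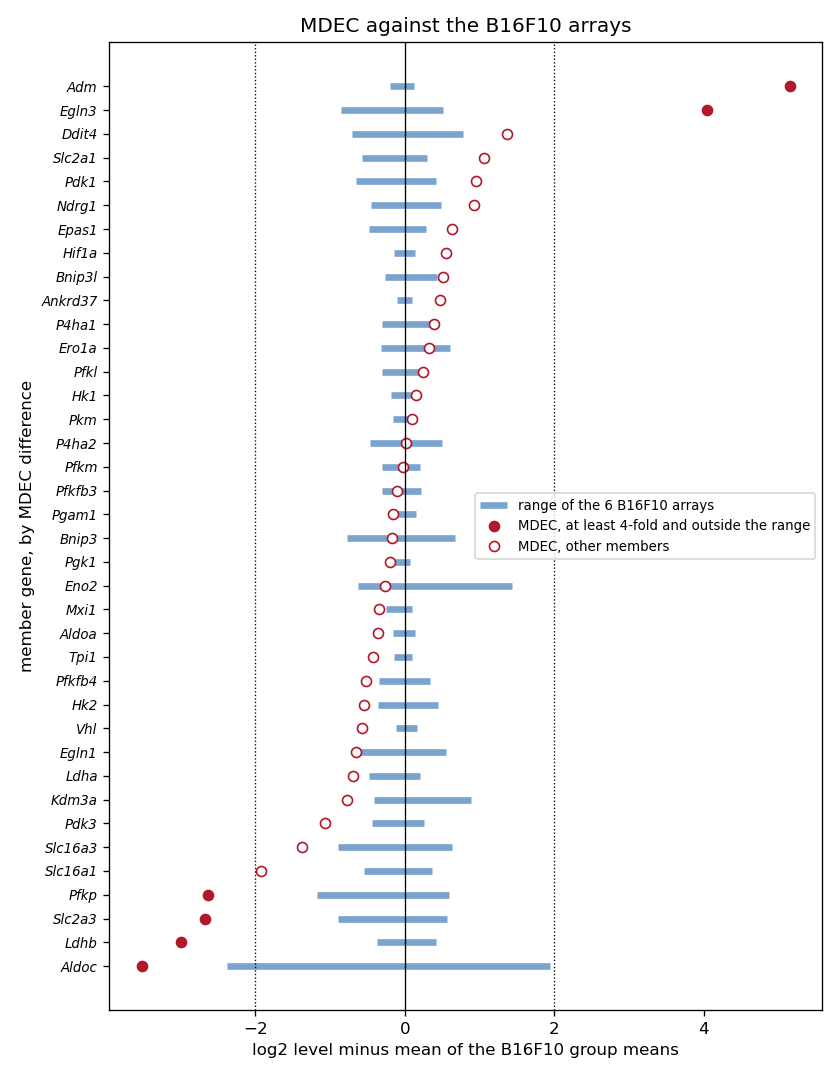
Points give the MDEC log2 level of each of the 38 members minus the average of the 2 B16F10 group means, and blue bars give the range of the 6 B16F10 arrays on the same scale; dotted lines mark a 4-fold difference and filled points meet the rule of size. Adm (5.15) and Egln3 (4.05) lie far to the right, and Aldoc, Ldhb, Slc2a3 and Pfkp to the left.

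Other genes of the same pathways were counted beside the members. Of 42 further glycolysis and pyruvate genes, 37 had a probe set of their own. Gapdh was among the 5 without. Against clone A1, the PECAM1+ clones were called higher at 1 and lower at 4 (9.33% and 11.2% of all genes), with a median of 0.08. The largest called difference was that of Pdk2, a pyruvate dehydrogenase kinase, which read 7.22, 7.22, 6.70 and 6.97 in clones A2 to A5, against 8.40 in clone A1 and 7.19 in parental cells (-1.37 ± 0.24, SE; adjusted p = 0.0308, limma).

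Of 45 further hypoxia response genes, 44 were measured, and against clone A1 limma called 3 higher and 10 lower in the PECAM1+ clones (9.33% and 11.2% of all genes), with a median of -0.15. Car9, the membrane carbonic anhydrase used as a hypoxia marker, read 6.28, 5.91, 5.77 and 5.85 in clones A2 to A5, against 8.68 in clone A1 and 7.58 in parental cells. Both PECAM1- samples were above every clone. The difference was -2.73 ± 0.22 (SE; adjusted p = 0.00642) from clone A1 and -1.63 ± 0.22 (adjusted p = 0.136) from parental cells.

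Vegfa, the vascular growth factor, read 8.94, 9.02, 8.57 and 8.90 in clones A2 to A5, against 10.05 in clone A1 and 8.60 in parental cells, so that clone A1 alone was high (-1.20 ± 0.19, SE; adjusted p = 0.0253, limma). Hmox1, haem oxygenase, differed from clone A1 by -2.14 ± 0.14 (adjusted p = 0.00479), at 10.38 to 10.66 in the clones, against 12.66 in clone A1 and 9.91 in parental cells. Car12, another membrane carbonic anhydrase, differed by 2.08 ± 0.30 (adjusted p = 0.0191), at 7.52 to 8.19 in the clones, against 5.76 in clone A1 and 7.69 in parental cells. Against both PECAM1- samples, and against parental cells alone, 0 genes of either list passed limma's test, while 6 of the 37 and 7 of the 44 had an unadjusted p under 0.05 in the first comparison (9.18% of all genes) and 5 and 6 in the second (13.5% of all genes).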

How the data were processed

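Total RNA of 7 samples was labelled with biotin and hybridised to Affymetrix Mouse Gene 1.0 ST arrays, per the labels. The authors deposited 1 log2 level for each probe set of each array, and Partek, without a version, stands in the submitters' processing notes. How background was corrected, probes summarised and arrays normalized, and on which genome build, is not stated. The log2 scale was inferred from the range of the values, 1.39 to 13.54. No detection calls, batches or scan dates were at hand, so signal over background and saturation were unknown, and precision is limited by the number of arrays.

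Of 35557 probe sets, 21789 carried 1 gene symbol in the platform annotation, 1621 several and 12147 none. Only the first were named, and 21698 matched a RefSeq gene table of GRCm38.p6 by Entrez identifier, with 0 symbols changed. Where a gene had several probe sets (999 genes), the one with the highest mean over the 7 arrays was used, leaving 19938 genes. In pairs of B16F10 arrays, 8.4% to 13.1% of genes held the same value on both arrays, which can make their spread too small, and 3 members had such a pair.

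The 4 PECAM1+ clones were compared with both PECAM1- samples, with clone A1 and with parental cells, in separate fits with limma 3.58.1 in R 4.3.3 (lmFit, eBayes with trend). Tests were two-sided, with Benjamini-Hochberg adjustment over 19938 genes and a threshold of 0.05. MDEC entered no fit. Alternatives were quantile normalization, median centring, leaving out genes under the median level, testing all probe sets, averaging probe sets, robust or untrended eBayes, array weights, 1 fit over 3 groups, another mean for B16F10, and leaving out each sample in turn.

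The members and all gene lists were chosen with earlier results of these data known. A member was given on every array if it passed a comparison, differed by 1 log2 unit, met the MDEC rule, was among the 4 largest differences of its role group or was one of 6 key genes, which gave 28 members. Up to 6 other pathway genes were named, by size among called genes, with Car9, Vegfa and Gapdh in any case. Choices made after seeing the values were the RefSeq-annotated Hk1 probe set, the order of the clones, the promoters shown and 4 of the plotted genes.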

Additional observations from a re-analysis of the deposited data

How the results depend on the processing

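Over settings that kept every array, 863 of 884 values of single members kept their direction and their side of the threshold, or moved by less than the SD over the clones, and 5 reversed. Many of the 863 could not have turned their direction. Robust or untrended eBayes, testing all probe sets and leaving out dim genes leave each difference unchanged. The RefSeq-annotated Hk1 probe set alters the difference of Hk1 alone. Against both PECAM1- samples and against parental cells, no member was called under any setting that kept every array. The count of 863 is therefore not a measure of how robust the values are. With 38 members and at most 6 arrays in a fit, small differences could not be shown. Large ones could be missed too, as Aldoc at -2.12 against both PECAM1- samples did not pass (adjusted p = 0.494, limma). Without detection calls the dim members Adm, Egln3, Epas1, Pfkfb4 and Ankrd37 cannot be set against background. No paired analysis was possible because the labels give the groups no shared replicate numbers. The causes of the changes below were not tested.

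Against both PECAM1- samples, the members called stayed at 0 under every setting that kept the 6 arrays, and the genes called numbered 7 with quantile normalization, 6 with median centring, 5 without dim genes, 5 with robust eBayes, 1 with all probe sets and 1 with array weights, against 2. Leaving out 1 array gave 0 to 4 members higher, 0 to 4 lower and 1 to 4089 genes, the highest each time without the parental array. Without the parental array or without clone A1, in that order, the values were -0.03 and 0.23 for Hk1, 0.32 and -0.48 for Hk2, -0.06 and 0.17 for Hif1a, 0.09 and -0.70 for Egln1, 0.64 and -0.01 for Ldha, -0.55 and 0.03 for Ldhb, 1.09 and -0.18 for Egln3, 0.19 and -0.10 for Adm, and -0.75 and 0.12 for Ero1a, so that each turned its sign under one of them. Hk2 also reversed without clone A4 (0.01).

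Against clone A1, the lower members called were 7 with quantile normalization, 7 with median centring and 7 without dim genes, which left 33 members, against 4. In both directions the members called were then 31.6%, 28.9% and 36.4%, against 21.5%, 20.6% and 38% of the genes tested. Leaving out 1 clone gave 2 to 6 higher, 2 to 6 lower and 2108 to 3526 genes, against 4089. Reversed were Pfkfb3 with quantile normalization (0.04), without clone A4 (0.07) and without clone A5 (0.00), Hk1 as the mean of its probe sets (0.48) and by the RefSeq-annotated one (0.99), Egln1 without clone A2 (-0.01; 0.26 at most, without A4) and Pdk1 without clone A4 (0.03; -0.32 at least, without A2).

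Against parental cells, the genes called were 5 with quantile normalization, 7 with median centring, 14 without dim genes and 1 with all probe sets, against 2, and 0 to 1 when a clone was left out. Reversed were Ldhb as the mean of its probe sets (-0.02) and without clone A2 (-0.04; 0.11 at most, without A3), Hk1 by the RefSeq-annotated probe set (-0.12), Bnip3l without clone A3 (0.03) and Ldha without clone A5 (0.01). For MDEC, the members meeting the rule of size were 2 higher and 4 to 5 lower under every setting run.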
